A study of Mus musculus with 2 samples.

Results

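The 10 genes described here encode the vascular endothelial growth factor (VEGF) family and the angiopoietins with their receptors: the ligands Vegfa, Vegfb, Vegfc, Pgf, Angpt1 and Angpt2 and the receptors Flt1, Kdr, Flt4 and Tek. They were taken as a named list, not by a rule on any measured value, though earlier results of these data were known. The list came out of 21887 protein-coding genes in the RefSeq table for GRCm38.p6 on chromosomes 1 to 19, X and Y. Chromatin immunoprecipitation followed by sequencing (ChIP-seq) had been done for asymmetrically dimethylated arginine of histone H3, H3R17me2a, the mark that the methyltransferase Carm1 deposits. Both samples were hearts of wild-type mice at postnatal day 21, with no further allele or agent in the labels, and they form 1 group without a control group. The labels name the tissue as heart and the extraction as frozen cardiac tissue, while another label names primary cardiac fibroblasts and the series design speaks of neonatal hearts. Each sample has 1 peak list, and the number in the sample's title gives the names list 1 and list 2. A shared peak is a list 1 peak that overlaps a list 2 peak by at least 1 bp.

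VEGF ligands bind receptor tyrosine kinases on endothelial cells and drive the growth and survival of blood and lymphatic vessels, whereas angiopoietins act through the receptor Tek to stabilise or loosen the vessel wall. In the heart the ligands Vegfa and Vegfb are made largely by cardiomyocytes, and the receptors sit on the endothelium that runs between them. Vegfa is a target of hypoxia-inducible factors, and Vegfb is abundant in oxidative muscle.

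Both lists were treated as 2 peak calls on 1 sample and not as replicates. Of 20978 overlapping pairs of peaks, 42.1% had their summit on the same base. The ChIP reads at a summit, recovered from the fold enrichment and the p-value of each peak, differed by a median of 1 read in the 8814 pairs whose summits coincided. Their mean squared difference divided by their sum was 0.0881, where independent counts would give a value near one. No mean, SD or test across samples is therefore given. List 1 held 21496 peaks with a median of 26 reads at the summit and list 2 held 38012 peaks with a median of 15. List 1 reaches down to a −log10 p of 5.0, and list 2 to 2.01, so that 51.3% of its peaks lay below the limit of list 1. A gene-end peak is one that overlaps the 1000 bp on either side of an end of the gene span, and a gene is counted with one here when both lists have it. Among the cell type markers, gene-end peaks in both lists were found at 9 of 10 cardiomyocyte, 1 of 10 fibroblast, 1 of 10 endothelial, 3 of 10 mural and 2 of 10 immune genes. Of all protein-coding genes 38.6% had one.

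The sequences at the transcription starts that lay under peaks of both lists show where the mark was called at these genes. They come from RefSeq on GRCm38.p6, whose primary chromosomes carry mm10 coordinates, and each window runs from 250 bases before a start to 50 bases after it, 5′ to 3′ on the strand of the gene. Windows were found for 8 of the 10 genes, without one for Angpt1 and Angpt2. In the first 3 windows the capitals mark the summit base that both lists shared with 10 bases on either side. In the fourth, the second start of Vegfa inside the gene, the shared summit lies outside the window. Its capitals mark CACGT, the reverse complement of ACGTG, the only form of the hypoxia response element core that was searched. The capitals show a match of bases only. Whether they lie in coding sequence or act as such an element was not tested.
Vegfa, chr17:46032328-46032627, minus strand: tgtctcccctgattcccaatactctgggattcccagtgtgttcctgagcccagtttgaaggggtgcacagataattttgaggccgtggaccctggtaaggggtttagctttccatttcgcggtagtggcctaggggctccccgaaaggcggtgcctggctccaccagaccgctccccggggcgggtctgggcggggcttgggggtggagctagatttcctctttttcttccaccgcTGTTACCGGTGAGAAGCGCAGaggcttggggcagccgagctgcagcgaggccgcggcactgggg
Vegfb, chr19:6987602-6987901, minus strand: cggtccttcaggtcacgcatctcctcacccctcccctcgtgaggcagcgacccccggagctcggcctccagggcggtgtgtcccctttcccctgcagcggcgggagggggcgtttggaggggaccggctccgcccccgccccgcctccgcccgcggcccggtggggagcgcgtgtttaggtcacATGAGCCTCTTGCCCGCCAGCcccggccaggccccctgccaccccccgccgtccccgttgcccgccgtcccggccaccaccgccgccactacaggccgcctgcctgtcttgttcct
Vegfc, chr8:54077282-54077581, plus strand: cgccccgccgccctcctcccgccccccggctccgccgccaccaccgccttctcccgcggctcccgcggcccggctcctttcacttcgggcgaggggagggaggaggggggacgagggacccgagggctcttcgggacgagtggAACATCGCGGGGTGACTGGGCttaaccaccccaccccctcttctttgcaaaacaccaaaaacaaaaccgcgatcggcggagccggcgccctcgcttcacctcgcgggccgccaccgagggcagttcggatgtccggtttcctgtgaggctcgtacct
Vegfa, second start, chr17:46025114-46025413, minus strand: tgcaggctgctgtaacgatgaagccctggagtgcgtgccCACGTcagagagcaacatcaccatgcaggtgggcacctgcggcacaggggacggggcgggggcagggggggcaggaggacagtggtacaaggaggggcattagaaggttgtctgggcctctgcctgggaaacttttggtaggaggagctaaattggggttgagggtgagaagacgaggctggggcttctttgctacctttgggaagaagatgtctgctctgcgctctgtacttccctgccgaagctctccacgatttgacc

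The shared summit lay 4 bp before the Vegfa start, 56 bp before the Vegfb start and 97 bp before the Vegfc start. All 300 bases of both Vegfa windows and of the Vegfc window were under a peak in each list. At Vegfb 157 bases were covered in list 1 and 179 in list 2. A shared peak covered such a window in 37.2% of the 17492 protein-coding genes in the promoter table. The number of CpG dinucleotides did not separate the windows under peaks of both lists from the other windows of these genes. The windows printed above held 16, 31, 35 and 10 CpG, in that order, whereas Flt1 with 29 and Flt4 with 26 were under no list 1 peak, and neither were Kdr (19), Pgf (23 and 7 at its 2 starts) and Tek (3). List 2 alone had a peak over 145 bases of the Flt1 window and 285 bases of the Flt4 window. In list 2 the Vegfa windows, with 16 and 10 CpG, were under a peak. Those of Kdr with 19 and Pgf with 23 were not. Over all 21263 promoter windows the median was 24 CpG under peaks of both lists and 6 elsewhere.

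Of the 5 motifs searched on both strands of the 10 windows of these genes, ACGTG occurred once, in the second Vegfa window. Over all promoter windows 20.9% hold it. CACCTG, an E-box form, occurred 2 times in the same Vegfa window and once each at Flt4 and at the Pgf start with 23 CpG (19.7% of all windows). TATAAA occurred once, at Flt1 (12.6%). The estrogen-related receptor sequence AAGGTCA (4.08%) and the ETS motif CGGAAG (21.1%) were in none of the 10 windows. In these 10 windows 0 bases belonged to more than one match.

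Most of the shared peaks around these genes lay in the windows of Vegfa and Vegfb, and all but 1 of those around Vegfb were nearer to other genes. A shared peak overlapped the gene span of Vegfa, Vegfb, Vegfc and Pgf, 4 of 10 genes, against 43.0% of all protein-coding genes. The same 4 genes had a shared peak within the span and 50000 bp on either side, against 67.0% of all genes. At a gene end 3 of 10 were marked, Vegfa, Vegfb and Vegfc, against 38.6%. The span and gene-end shares lay near those of all genes, and the window share lay below. In list 2 alone 7 of 10 genes had a peak in the span, against 53.5% of all genes of any length. Genes of like length were not compared for list 2, so the 7 are not read as an excess. Of the 28 shared peaks in the 10 windows, 12 lay around Vegfa and 12 around Vegfb, together 85.7%. Pgf had 3, Vegfc 1, and Angpt1, Angpt2, Flt1, Kdr, Flt4 and Tek had none. The median width of the 28 was 656 bp, against 472 bp for all shared peaks. By gene it was 1059 bp around Vegfa, 483 bp around Vegfb and 193 bp around Pgf, and the Vegfc peak was 386 bp wide. The wider median therefore came mainly from Vegfa.

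**Figure D1:**
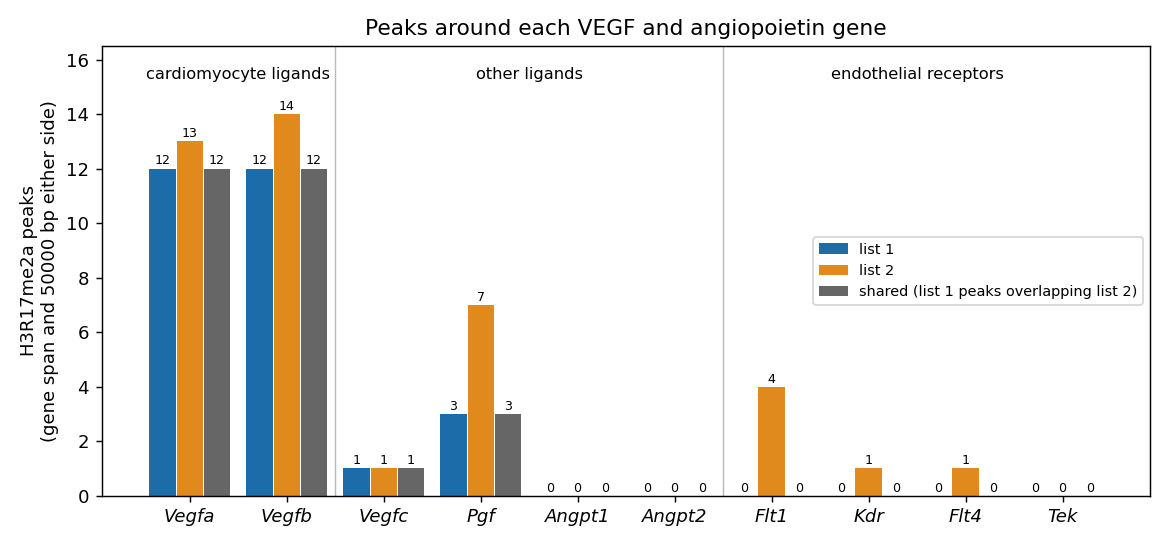
Number of H3R17me2a peaks in the gene span and 50000 bp on either side of each gene, for list 1, list 2 and the shared peaks, with genes ordered by role. Vegfa and Vegfb each hold 12 shared peaks, while the 4 receptors hold none and only list 2 has peaks at Flt1, Kdr and Flt4.

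Vegfa, the main growth signal for endothelial cells, carried peaks along most of its length and beyond its 3′ end. Its span (chromosome 17, 46016993 to 46032377, minus strand, 15385 bp) held 8 peaks of list 1, all shared, and 7 of list 2, where one peak ran across a pair of list 1 peaks. They covered 68.7% of the span in list 1 and 64.5% in list 2, and 99.8% of all protein-coding genes had a lower share covered in list 1. Among the 3923 genes with a span of 10 to 20 kb, 5 had at least 8 shared peaks inside (0.127%, against 1.17% of genes of any length). The other genes, named after their values were seen, were Tnnt2 with 10, Mybpc3 and Dnaja4 with 9 each and Tuba8 with 8. Tnnt2 and Mybpc3 encode the sarcomere proteins cardiac troponin T and myosin binding protein C.

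The peak over the Vegfa start spanned 935 bp in list 1 and 904 bp in list 2. Its fold was 2.60 and 2.09 (list 1, then list 2), lower than that of 91.9% and 97.5% of the peaks of each list. Its reads were nevertheless among the highest, with 103 at the summit in each list, and 10.8% and 6.88% of the peaks of each list had more. The background that the caller set at this summit was 39.0 reads in list 1, against a median of 4.0 over the list. In list 2 it was 30.0 against a median of 1.23, where the ChIP reads had been scaled by 0.618. The low fold at the Vegfa start thus stood beside a high background, not beside few reads.

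Inside the gene the widest peak followed the one at the start. It spanned 3951 bp in list 1 and 3725 bp in list 2, and only 0.237% and 0.216% of peaks were wider. It had the most reads of any Vegfa peak, 141 in list 1 and 150 in list 2, and folds of 4.34 and 2.53. Over the 8 peaks of list 1 in the span the fold ran from 2.60 to 4.34 and the reads from 43 to 141. Over the 7 peaks of list 2 the fold ran from 2.09 to 3.00 and the reads from 60 to 150.

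The strongest folds lay past the 3′ end of Vegfa, where the 50000 bp window holds no other protein-coding gene. Of the 4 shared peaks there, the farthest had its summit 28059 bp from the 5′ end in list 1 and 28056 bp in list 2, 12192 bp and 12176 bp outside the span by its nearest edge. Its fold was 21.01 in list 1 and 24.1 in list 2, rank 45 and rank 35 of all peaks. The next, 7022 bp outside the span in list 1, had folds of 10.004 and 10.4, and its summits coincided. The peaks at 2461 bp and 42 bp had folds of 4.25 and 3.64 in list 1 and of 4.81 and 3.31 in list 2. The reads changed much less along this stretch than the folds. The farthest peak had 62 reads in list 1 over a background of 2.0, and the 7022 bp peak had 59 over 5.0, against 103 over 39.0 at the start. Before the Vegfa start no shared peak was found within 50000 bp, and list 2 alone had 1 peak there, 12141 bp away, with 6 reads.

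**Figure D2:**
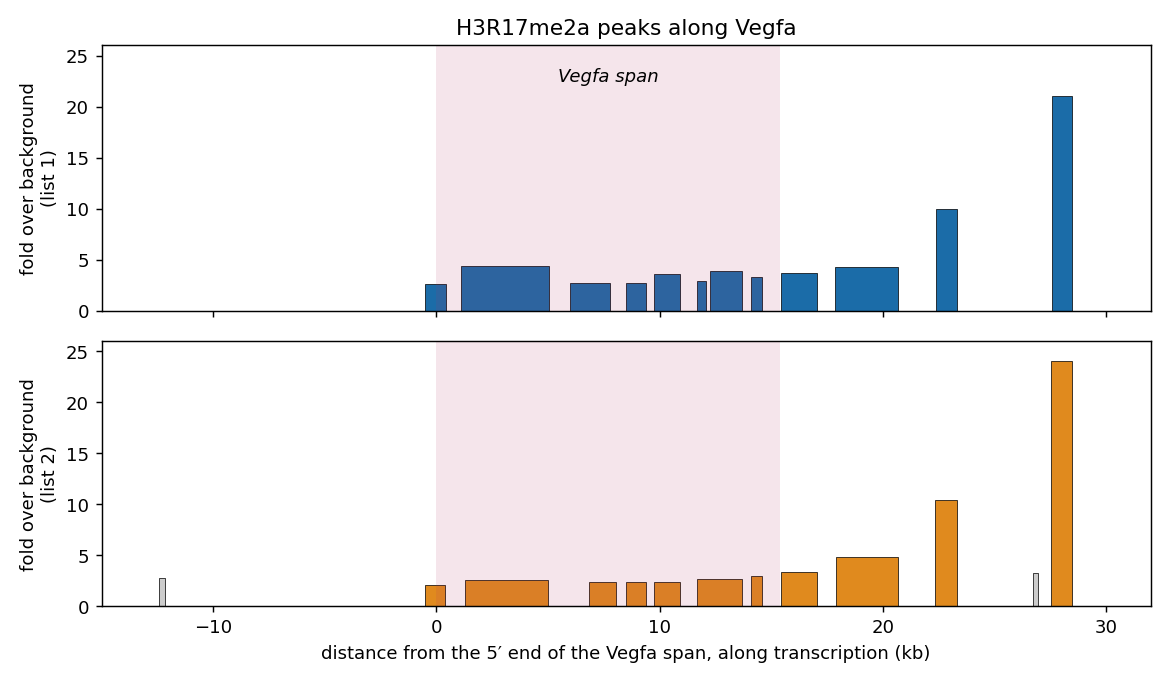
Peaks along Vegfa in list 1 (upper) and list 2 (lower), with each bar as wide as its peak and as high as its fold enrichment over background, against distance from the 5′ end along transcription in kb; the shaded band is the gene span and grey bars are peaks found in 1 list only. The folds stay between 2.09 and 4.34 inside the span and reach 21.01 and 24.1 at the farthest peak.

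Vegfb, a ligand of Flt1 linked to fatty acid handling and coronary vessels, had as many peaks around it as Vegfa but almost all of them lay nearer to other genes. Its span (chromosome 19, 6982472 to 6987651, minus strand, 5180 bp) held 1 peak in each list, which lay over the start. That peak had the most reads of any in the 10 windows, 191 in list 1 and 192 in list 2, over backgrounds of 97.0 and 45.0 (the latter in scaled reads). Its fold was only 1.96 in list 1 and 2.60 in list 2, and 98.0% and 86.7% of the peaks of each list had a higher fold. The other 11 shared peaks of its window were each nearer to one of the 12 other protein-coding genes there, such as Bad, Fkbp2 and Trpt1. The nearest of them, 1362 bp past the 3′ end in list 1 and 1100 bp in list 2, lay over Fkbp2 with 120 reads in each list. The density around Vegfb, 11.4 shared peaks per 100 kb, therefore describes a gene-dense stretch. It was 10.4 around Vegfa, which has its window to itself, and the median over all genes was 0.954.

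The other ligands had few peaks or none. Vegfc, the lymphatic growth factor (chromosome 8, 54077532 to 54186454, plus strand), had 1 peak in each list, over its start. It was 386 bp wide with 27 reads and a fold of 4.67 in list 1, and 395 bp wide with 23 reads and a fold of 3.81 in list 2. The annotated coding gene Gm33153 also spans this place, so the peak cannot be given to Vegfc alone, and no other peak was found over the 108923 bp of the gene. Pgf, placental growth factor and a ligand of Flt1 (chromosome 12, 85166637 to 85177785, minus strand), had no peak at its ends. Its 1 shared peak inside the span was 193 bp wide with 11 reads and a fold of 4.0 in list 1, and 573 bp wide with 11 reads and a fold of 2.60 in list 2. The other 2 shared peaks, 30673 bp and 29749 bp away, lay in the neighbouring gene Rps6kl1. All 3 fell away at a −log10 p of 5 or more.

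Angpt1 and Angpt2, the activating and the context-dependent ligand of Tek, had no peak of either list within 50000 bp. Angpt1 (chromosome 15, 42424667 to 42676977) was 554710 bp from the nearest shared peak, and 8.95% of protein-coding genes were farther from one. List 2 had a peak 91587 bp away. Angpt2 (chromosome 8, 18690263 to 18741562), which lies within the span of Mcph1, was 94601 bp from the nearest shared peak.

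None of the 4 endothelial receptors had a shared peak within the span or 50000 bp on either side. List 1 had no peak at all in these windows, 790 kb in sum, and list 2 had 6. The nearest shared peak was 103932 bp from Tek, 130747 bp from Flt1, 161245 bp from Kdr and 193965 bp from Flt4, and between 18.1% and 24.5% of all genes were farther from one. These are long genes, between 43061 bp and 164835 bp, and among the 6949 genes with spans of 30000 to 300000 bp a shared peak lay in the span of 57.4% and in the window of 76.1%. In chromatin from whole tissue, fewer endothelial cells and less of the mark per endothelial cell cannot be told apart. Of the endothelial marker genes 1 of 10 was marked at an end, against 38.6% of all genes. When every peak needed a −log10 p of 5 it was 0 of 10, against 33.0%. The fibroblast, immune and mural markers lay below these shares too, with 1, 2 and 3 of 10 marked. A low count was thus not particular to endothelial markers, and a link to the receptors was not tested.

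At the looser threshold of list 2, weak peaks appeared at 3 of the 4 receptors. List 2 peaks overlapped the spans of Flt1, Kdr and Flt4 and of 7 of the 10 genes in all, against 53.5% of protein-coding genes, and the windows of the same 7 held one, against 76.5%. Flt4, the receptor for Vegfc on lymphatic endothelium (chromosome 11, 49609679 to 49652739, plus strand), had 1 peak of 374 bp whose summit lay 12 bp before the start, with 10 reads, a fold of 3.95 and a −log10 p of 4.61. Kdr, the main signalling receptor for Vegfa (chromosome 5, 75932827 to 75979072, minus strand), had 1 peak of 347 bp, 38579 bp into the gene, with 9 reads and a −log10 p of 3.23. Flt1, which binds Vegfa, Vegfb and Pgf and also has a soluble decoy form (chromosome 5, 147561604 to 147726438, minus strand), had 4 peaks in its window. The one at its start had 18 reads over a background of 5.0 (the latter in scaled reads). Its fold was 2.02, with a −log10 p of 2.26, and the peak deep in the gene had 5 reads. A further 2 lay in the long noncoding RNA gene Gm35541 before the start of Flt1. One of them, 25701 bp away, had 20 reads, a fold of 6.68 and a −log10 p of 10.2, above the lowest value in list 1, and yet list 1 has no peak there. Tek, the angiopoietin receptor (chromosome 4, 94739086 to 94874976, plus strand), had no peak in either list within 50000 bp.

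Set side by side, the windows of Vegfa and Vegfb held 24 shared peaks in 221 kb, or 10.9 per 100 kb, and those of the 4 receptors none in 790 kb. The 4 other ligands had 4 in 824 kb, or 0.486 per 100 kb. In list 2 alone the values were 12.2 per 100 kb for Vegfa and Vegfb, 0.971 for the other ligands and 0.759 for the receptors. Counting only peaks nearer to the gene than to any other coding gene left 13 for Vegfa and Vegfb, 5.89 per 100 kb, with 12 of them at Vegfa. A pair of ligand genes and 4 receptor genes in 1 sample are not replicates of a condition, and no test was made of this difference. Adding Angpt1, which cardiomyocytes and mural cells can also make, lowered the ligand value to 4.19 per 100 kb, and all 6 ligands together gave 2.68.

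**Figure D3:**
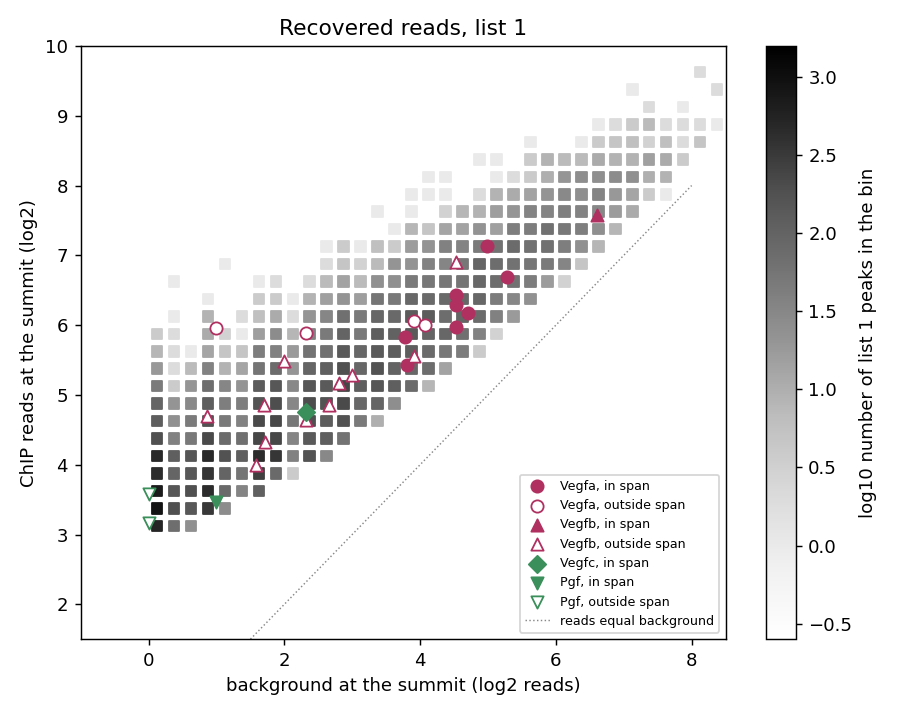
ChIP reads at the summit against background at the summit, both log2, for every list 1 peak (grey squares shaded by the number of peaks) and for the peaks around Vegfa, Vegfb, Vegfc and Pgf (filled symbols inside the gene span, open symbols outside). Peaks inside Vegfa and at the Vegfb start lie at high reads and high background, close to the dotted line where reads equal background, while the Pgf peaks lie at low reads.

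Whether these genes appeared among the stronger peaks depended on the ranking. In the upper 50% of each list by fold, 6 of the 28 shared peaks were left, no gene kept a peak in its span or at its end, and Vegfa kept 2, both past its 3′ end. In the upper 50% by recovered reads, a ranking chosen after seeing the data, 22 peaks were left, among them all 12 around Vegfa, and 3 genes were marked at an end.

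Among the genes that control Vegfa and those that act below its receptors, the share marked lay above that of all genes. These lists were chosen with earlier results of these data known. Of 11 hypoxia and cardiac regulators of Vegfa, 9 were marked at a gene end (81.8%, and 38.6% of all genes). All 11 had a shared peak in the span, against 43.0% of all genes and 57.4% of genes with spans of 30000 to 300000 bp. The folds of the strongest gene-end peak in list 1 and list 2 were 8.72 and 9.48 at the nuclear receptor gene Esrra, 8.0 and 5.81 at Egln1, the oxygen-sensing prolyl hydroxylase that marks hypoxia-inducible factors for decay, 7.80 and 5.02 at the coactivator gene Ppargc1a, and 6.47 and 5.0 at Hif1an, the asparagine hydroxylase of the same factors. An end of Esrra lies within 2000 bp of an end of another gene, and whether it is the end with the peak was not determined. The genes left unmarked were Hif1a and Hif3a, with 1 and 2 shared peaks in their spans. Of 18 signalling genes below the receptors 14 were marked (77.8%). Pik3ca, the catalytic subunit of a lipid kinase, had folds of 9.57 and 10.3. One of its ends lies near another gene, not necessarily the end with the peak. The lipid kinase regulatory subunit gene Pik3r1 had 4.46 and 4.38 and the phospholipase gene Plcg1 4.27 and 2.42. Prkcb, Akt1, Src and Sh2d2a were not marked. Most of these kinases act in many cell types, cardiomyocytes included.

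In 3 lists of genes closer to the vessel wall, the shares marked were 30.0%, 42.9% and 35.7%, against 38.6% of all genes. When every peak needed a −log10 p of 5 they fell to 2 of 10, 4 of 14 and 4 of 14, against 33.0%. Of 10 co-ligands, co-receptors and modulators 3 were marked. These were Nrp1, a co-receptor for Vegfa, with folds of 9.50 and 9.47, Adamts3, a protease that processes Vegfc, with 5.20 and 4.09, and the co-receptor gene Nrp2 with 4.0 and 2.57. The Nrp2 mark was lost under the stricter threshold. Tie1, the receptor related to Tek, was not marked. Tie1 and, in the list of transcription factors, Erg are also among the endothelial markers. Of 14 other angiogenic factors and receptors 6 were marked, led by the ephrin receptor gene Ephb4 (9.35 and 6.37), Fgf1 (6.15 and 4.39), the Notch ligand gene Jag1 (5.0 and 6.47) and the chemokine gene Cxcl12 (5.0 and 4.77). An end of Jag1 lies within 2000 bp of an end of another gene, not necessarily the end with the peak, and the Jag1 span held 0 shared peaks. The marks of Fgf2 and Pdgfb, named after their values were seen, were lost under the stricter threshold. Of 14 endothelial transcription factors 5 were marked, Tal1 (8.01 and 5.40), Gata2 (4.45 and 3.71), Klf2 (3.53 and 3.63), Prox1 (3.21 and 5.07) and Klf4 (2.55 and 2.33), of which the Gata2 mark was lost under the stricter threshold.

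**Figure D4:**
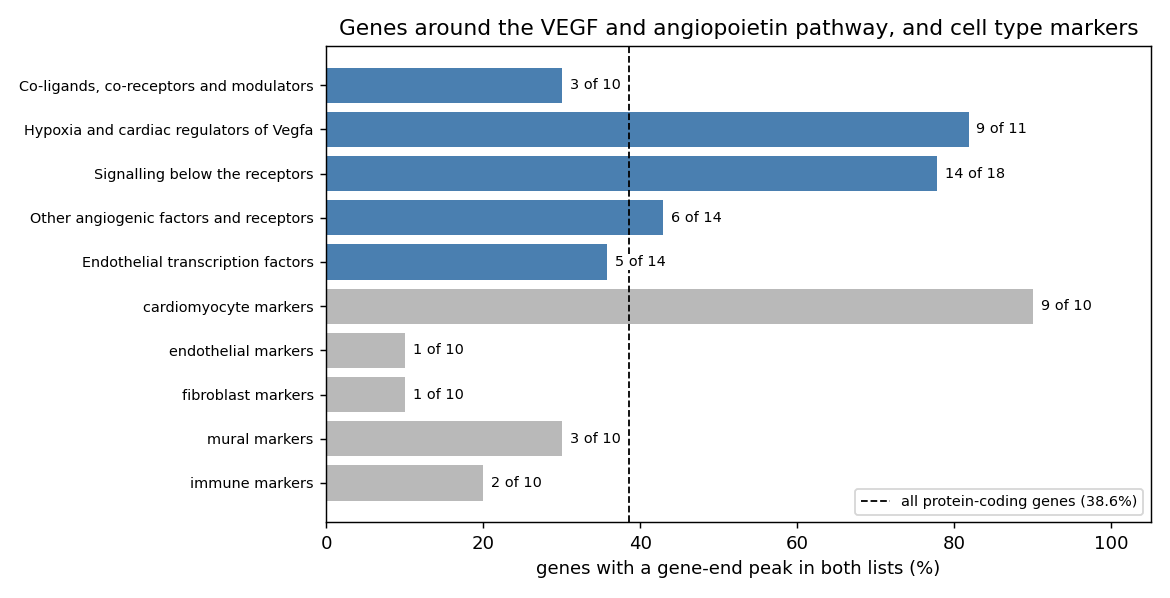
Percent of genes marked at an end in both lists for 5 lists around the pathway (blue) and 5 lists of cell type markers (grey), with the number of genes beside each bar and the share of all protein-coding genes as a dashed line at 38.6%. Regulators of Vegfa (9 of 11), signalling genes (14 of 18), other angiogenic factors and receptors (6 of 14) and cardiomyocyte markers (9 of 10) lie above that line. All other lists lie below it, with endothelial and fibroblast markers lowest (1 of 10 each).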

How the data were processed

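ChIP-seq peaks of 2 samples of 1 group were used. FastQC, Bowtie2 and mm10 come from the submitters' processing notes with no version, while the peak caller, control library and filters were not given in the sources used here. The deposited lists have no header and follow the 10-column narrow peak layout. The authors' fold is a linear ratio of ChIP signal over background at the summit. The authors' p-values and q-values were deposited as −log10, and the deposited score is about 10 times the −log10 p and was not used. Fold, p and q are the authors' values and describe or filter peaks within a list.

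Reads were recovered by taking the fold as (reads + 1) / (background + 1) and p as the upper Poisson tail, within 0.001 on the −log10 scale. This matched 99.9% of peaks in each list, in list 2 with ChIP reads multiplied by 0.618, a factor found by a scan, and 1.25% and 3.2% with p exchanged between peaks. Gene spans and names came from the RefSeq table for GRCm38.p6, without exons, so exon and UTR classes were not analysed. Coordinates are 1-based. The methods were tested on simulated data (Python 3.11.15, scipy 1.17.1). All 10 genes are named. Of each pathway list up to 4 members with the highest list 1 fold at a gene end are named, and every marked or unmarked member where these number 5 or fewer, except lists of cell type markers. One gene that this rule selects is not reported here. The genes and lists were chosen with earlier results of these data known. No test was made, since there is 1 group and genes are not replicates. The total read depth is unknown. Alternatives changed the threshold, the list, the overlap, the windows and the groups.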

Additional observations from a re-analysis of the deposited data

How the results depend on the processing

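No paired analysis was possible because both samples fall into 1 group and their lists were counted as 1 sample. With list 1 or list 2 alone, the genes with a peak in the span numbered 4 to 7 and those with a gene-end peak 3 to 5, the higher values from list 2. In the upper 50% by fold, 6 peaks were left in the windows, 0 genes had a peak in the span and 0 at a gene end, and Vegfa and Vegfb exceeded the receptors by 2.27 peaks per 100 kb. That difference was 31.4 with windows of 10000 bp, 5.89 with only the peaks nearest to the gene (14 peaks in all), 4.19 with Angpt1 added and 2.68 for all 6 ligands, against 10.9 as reported. The receptors had 0 peaks as reported, so the sign of the difference could turn only with list 2 alone, where it was 11.5. With windows of 100000 bp it was 7.85. The sign could not turn there, since the shared peak nearest to any receptor was 103932 bp away, from Tek. The count of 28 window peaks ran from 21 to 41 under the other alternatives. The depth of the libraries is unknown, so a gene without a peak is one where none was called.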

Other observations

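Several genes of the pathway lists carried many shared peaks inside their spans. These spans differ widely in length. Over all protein-coding genes the median was 0.954 shared peaks per 100 kb of window, and 1.17% had at least 8 in the span. Ppargc1a, the coactivator of mitochondrial biogenesis, had 41, and its window held 6.30 shared peaks per 100 kb. The adaptor gene Shb, which binds the activated receptor Kdr, had 11 with 5.78 per 100 kb. The oxygen sensor gene Egln1 had 10 with 10.7 per 100 kb, and the growth factor gene Fgf1 had 8 with 5.24 per 100 kb. The lymphatic transcription factor gene Prox1 had 5 with 3.93 per 100 kb. Akt1, which was not marked at an end, had 4 with 9.91 per 100 kb. The Akt1 window held 12 shared peaks, so most lay outside its span, and whether they were nearer to other genes was not determined. The share of all genes with as many peaks in the span as Prox1 or Akt1 was not counted. All genes named in this paragraph were chosen after their values were seen.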
